A study of Mus musculus with 96 samples.

Results

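Messenger RNA of mouse back-skin epidermis was compared between ZT16 and ZT4 within each of 4 genotypes. Zeitgeber time (ZT) counts hours from lights on; lights went off at ZT12, so ZT16 lies 4 h into the dark and ZT4 lies 4 h into the light. The comparison used every library of those times, 4 mice per genotype and time, which is 32 of the 96 libraries of the series. The other libraries, taken at ZT0, ZT8, ZT12 and ZT20, served to estimate the spread of each gene.

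All mice were C57BL/6 males aged 8 weeks, fed freely in a cycle of 12 h light and 12 h dark. RERE, EpiRE and BRE mice were homozygous for Arntl stopFL/stopFL, in which a stop cassette blocks Arntl, the gene for the clock activator BMAL1, until Cre removes it. RERE mice were K14Cre tg/wt and also Syt10-Cre tg/wt, for removal in epidermis and brain. EpiRE mice were K14Cre tg/wt but Syt10-Cre wt/wt, for removal in epidermis. BRE mice were K14Cre wt/wt but Syt10-Cre tg/wt, for removal in brain. WT mice had Arntl wt/wt together with K14Cre wt/tg and also Syt10-Cre tg/wt, so they carried both Cre transgenes and an unaltered Arntl. K14Cre is driven by a keratin promoter of keratinocytes and Syt10-Cre by the promoter of a gene active in the brain's central clock, and cells in which neither is active keep the cassette.

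The circadian clock is a loop of transcription. BMAL1 and CLOCK bind E-box sequences and switch on Per, Cry, Nr1d and PAR bZIP genes, whose products then repress or modulate the loop. The Nr1d proteins repress Arntl and related genes. In epidermis the daily cycle includes a timed wave of DNA replication in the proliferating keratinocytes of the basal layer, and feeding, activity and body temperature also change between night and day.

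Estimated depth was 12.2 to 32.4 M reads in these 32 libraries, with a median of 17.4 M. Correlations between libraries of a group were 0.977 to 0.992, and the median gene had an SD of 0.112 to 0.145 on the log2 scale within a group. Keratinocyte keratins were abundant in every library (Krt5 at 4520 to 7880 and Krt10 at 4820 to 9400 RPKM, reads per kilobase per M reads). The T cell marker Cd3e was present at 1.44 to 11.1 RPKM and the Langerhans cell marker Cd207 at 1.38 to 7.36 RPKM, whereas Pecam1 of endothelium and Adipoq of fat stayed at or below 0.241 and 0.217 RPKM. Of the 8 tested T cell markers, Thy1 fell in RERE (log2 difference -0.97). No other T cell marker, none of 8 Langerhans and dendritic cell markers and none of 4 melanocyte markers was called in any genotype. Yet Langerhans and dendritic cell markers were lower at ZT16 in 7 of 8 in RERE, 8 of 8 in EpiRE and 7 of 8 in WT. Their medians there were -0.28, -0.22 and -0.35, against 0.16 in BRE, where 7 of 8 were higher. T cell markers were lower in 7 of 8 in BRE and WT, and in 5 and 4 of 8 in RERE and EpiRE. Of all 12144 tested genes 7111 in RERE, 5854 in EpiRE, 7723 in BRE and 5729 in WT were lower at ZT16. Whether the content of these cells changed was not tested. Each genotype's table had been normalized on its own, so levels are not compared between genotypes and only the time differences are. Reads over Arntl do not show whether its product works, so its level does not check the genotype labels.

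One library stood apart in its clock genes. In EpiRE, the mouse numbered ZT16 replicate 3 had Per2 at 0.687 RPKM, against 4.99 to 12.7 RPKM in the other ZT16 mice of that genotype, and its Dbp was 4.91 RPKM against 23.4 to 35.4 RPKM. The median SD of the 18 core clock genes was 0.49 (log2) among the EpiRE mice at ZT16, higher than in any other group of 4 mice of the series. The median of all tested genes in the same mice was 0.11, within the range of the other groups. The clock gene spread of EpiRE was not high at ZT16 alone. Its median SD was 0.43 at ZT0, 0.29 at ZT4, 0.33 at ZT8 and 0.30 at ZT20, each the highest of the genotypes at that time. At ZT12 it was 0.26, against 0.27 in BRE. EpiRE results are also given without ZT16 replicate 3, an alternative chosen after its values were seen.

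The 4 genotypes differed widely in how many genes changed between the 2 times. In RERE epidermis 274 genes rose at ZT16 (2.26%) and 444 fell (3.66%), together 5.91% of the 12144 tested genes (limma, Benjamini-Hochberg adjusted p below 0.05). In EpiRE 4 genes passed, or 0.0329%: Cep250 rose (0.00823%), and Stk40, Sypl and Mir16-2 fell (0.0247%). In BRE 229 rose (1.89%) and 1114 fell (9.17%), together 11.1%. In WT 833 rose (6.86%) and 648 fell (5.34%), together 12.2%. EpiRE still had 1312 genes at an unadjusted p below 0.05, which is 10.8% of those tested, against 3174 in WT. The SD of the log2 differences over all tested genes was 0.27 in RERE, 0.18 in EpiRE, 0.272 in BRE and 0.279 in WT.

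**Figure D1:**
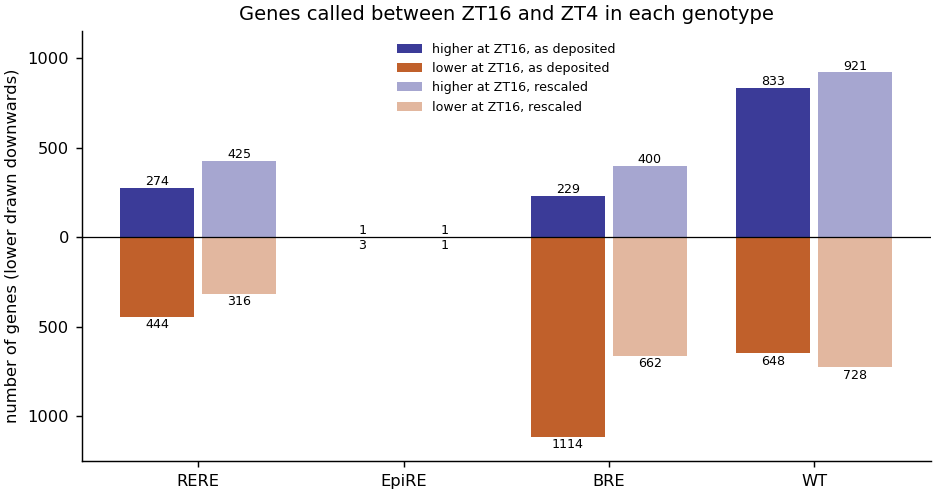
Number of genes called higher (drawn upwards) or lower (drawn downwards) at ZT16 than at ZT4 in each genotype, of 12144 tested, for the values as deposited (dark bars) and after rescaling libraries by the median of gene ratios (pale bars). BRE has 1114 falls as deposited and 662 after rescaling, and EpiRE has 4 calls as deposited and 2 after rescaling.

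The balance of rises and falls depended on how libraries were scaled, because the median gene was -0.0359 in RERE and -0.0622 in BRE on the log2 scale. After rescaling by the median of gene ratios, 425 genes rose and 316 fell in RERE, 400 rose and 662 fell in BRE, and 921 rose and 728 fell in WT, so the excess of falls held in BRE and turned to an excess of rises in RERE. Single libraries also carried weight. RERE had 464 calls without ZT16 replicate 1, 382 without ZT4 replicate 1 and 356 without ZT4 replicate 4. BRE had 609 without ZT16 replicate 2, 604 without ZT4 replicate 1 and 891 without ZT4 replicate 4, and WT had 936 without ZT4 replicate 1. EpiRE had 1 call without ZT16 replicate 1, 2, 3 or 4 or ZT4 replicate 1 or 2, and 3 calls without ZT4 replicate 3 or 4.

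Between ZT16 and ZT4, clock genes separated RERE and WT from EpiRE and BRE. Cry1, a core repressor of the loop, was at 20, 21, 17.3 and 17.9 RPKM at ZT16 in RERE, against 5.3, 4.1, 4.59 and 5.09 RPKM at ZT4. In EpiRE the ZT16 mice had 12.2, 12.6, 11.7 and 12.5 RPKM, against 14.7, 10.3, 9.4 and 10.8 RPKM at ZT4. In BRE they had 37.9, 35.7, 36.6 and 34.6 RPKM, against 36.7, 34.2, 35.7 and 38.3 RPKM. The 2 times overlapped in EpiRE and BRE and not in RERE. WT mice had 22.2, 22.2, 19.5 and 22.2 RPKM at ZT16, against 4.34, 2.54, 4.58 and 3.98 RPKM at ZT4, again without overlap. A complete separation of 4 from 4 libraries was seen in 13.7% of all tested genes in RERE, 7.67% in EpiRE, 16.3% in BRE and 18.2% in WT. Cry1 rose by 2.00 ± 0.14 in RERE and by 2.51 ± 0.16 in WT (log2 difference ± SE; limma adjusted p = 5.21e-08 and 9.61e-09). The differences of EpiRE and BRE, 0.14 ± 0.24 and -0.00 ± 0.07, were each below that of WT (limma adjusted p = 6.61e-06 and 3.17e-12).

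Nr1d1, which encodes the repressor REV-ERBα, ran the other way, at 17.3, 18, 22.5 and 22.5 RPKM at ZT16 in RERE against 83.5, 96.5, 89 and 74.2 RPKM at ZT4. In WT Nr1d1 was at 16.8 to 24.2 RPKM at ZT16 against 86.9 to 123 RPKM at ZT4. It fell by 2.10 ± 0.20 in RERE (log2). EpiRE had -0.53 ± 0.35 and BRE 0.03 ± 0.13, neither of which passed, and Nr1d1 fell by 2.42 ± 0.13 in WT.

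Per2, a light-responsive and clock-driven repressor, had the largest difference of the clock genes. In RERE it was at 8.7, 13.9, 12 and 13.8 RPKM at ZT16, against 1.19, 1.41, 0.345 and 0.989 RPKM at ZT4. The EpiRE mice spread widely at ZT16, with 9.71, 12.7, 0.687 and 4.99 RPKM, against 5.48, 3.33, 6.84 and 4.33 RPKM at ZT4. BRE mice had 6.02, 6.39, 4.38 and 5.12 RPKM at ZT16, against 3.23, 3.19, 2.99 and 4.41 RPKM at ZT4. WT mice had 11, 10.8, 11 and 13.3 RPKM at ZT16, against 0.795, 0.424, 0.259 and 0.74 RPKM at ZT4. The times overlapped in EpiRE, and in BRE through 1 mouse at each time, and were far apart in RERE and WT, with log2 rises of 3.77 ± 0.41 and 4.51 ± 0.31. Neither EpiRE nor BRE passed the test for Per2 (adjusted p = 1 and 0.198 with limma). Without ZT16 replicate 3 the Per2 difference in EpiRE was 0.82 in place of -0.09 and still did not pass (limma adjusted p = 0.43).

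**Figure D2:**
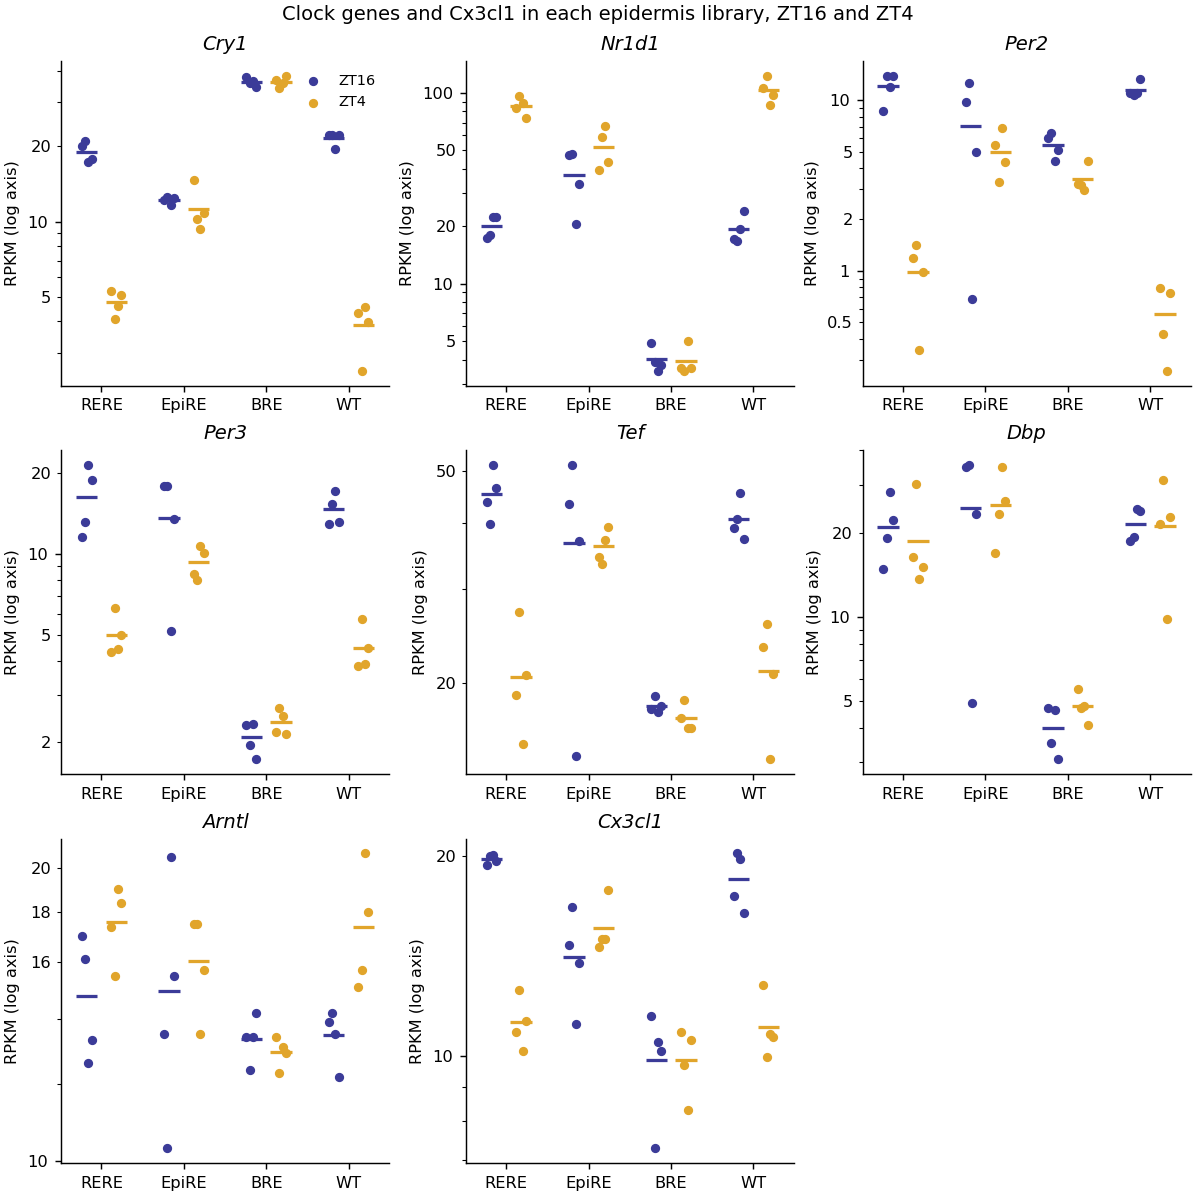
RPKM (log axis) of 7 clock genes and the chemokine gene Cx3cl1 in each library, ZT16 to the left of ZT4 within each genotype, with 4 mice per group as points and the group mean as a line. Cry1 and Per2 lie higher at ZT16 in RERE and WT, Nr1d1 lies lower there, and 1 EpiRE mouse at ZT16 lies at 0.687 RPKM for Per2 and 4.91 RPKM for Dbp; levels are not comparable between genotypes.

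Of the 18 core clock genes tested, 7 passed in RERE, 0 in EpiRE, 0 in BRE and 10 in WT. Among all tested genes 5.91%, 0.0329%, 11.1% and 12.2% passed, in the same order. At an unadjusted p below 0.05 the clock gene counts were 10, 1, 3 and 12, against 21.2%, 10.8%, 25.9% and 26.1% of all tested genes. All 7 genes of RERE, among them Cry1, Nr1d1, Per2, Per3, Tef and Hlf, had the same sign in WT and passed there too. Per3, a further period gene, rose by 1.67 ± 0.19 in RERE, had 0.41 in EpiRE and -0.19 in BRE, which did not pass, and rose by 1.72 ± 0.16 in WT. Tef, a PAR bZIP activator of output genes, rose by 1.16 ± 0.16 in RERE and by 0.98 ± 0.14 in WT. Hlf, of the same family, rose by 0.80 ± 0.11 in RERE and by 0.37 ± 0.11 in WT. Npas2, a partner of BMAL1, had -0.51 ± 0.23 in RERE, which did not pass, and fell by 1.09 ± 0.19 in WT, and the RERE and WT values could not be told apart (difference 0.58 ± 0.30, limma adjusted p = 0.332). Cry2 and Nr1d2 also passed in WT alone, at 0.35 and -0.50, and again their RERE differences from WT did not pass.

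Dbp and Arntl did not pass in any genotype at ZT16 against ZT4, although their means varied over the day in RERE, EpiRE and WT. Dbp, a PAR bZIP gene driven directly through E-boxes, averaged 21.2 ± 5.6 RPKM at ZT16 against 18.8 ± 7.6 RPKM at ZT4 in RERE (SD, n = 4), but 95.7 RPKM at ZT8. In WT it averaged 21.7 ± 2.97 RPKM at ZT16 against 21.3 ± 8.76 RPKM at ZT4, with 107 RPKM at ZT8. Arntl averaged 14.8 ± 2.14 RPKM at ZT16 against 17.6 ± 1.55 RPKM at ZT4 in RERE, with 23.6 RPKM at ZT0 and 5.75 RPKM at ZT12. In EpiRE Dbp averaged 44.6 ± 13.9 RPKM at ZT8 and 10.4 ± 5.51 RPKM at ZT20. Arntl there averaged 11.7 ± 2.18 RPKM at ZT12 and 20.9 ± 2.11 RPKM at ZT20, so ZT16 and ZT4 alone do not show its daily range. The BRE means of Arntl lay between 12 and 13.7 RPKM at all 6 times. In WT Arntl averaged 13.4 ± 0.903 RPKM at ZT16 against 17.4 ± 2.52 RPKM at ZT4 without overlap, a difference of -0.36 that missed the threshold (limma adjusted p = 0.0608) and passed it after rescaling (0.0435).

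The genotypes' clock differences were also set against one another. No core clock gene differed between RERE and WT. Against WT, Cry1, Nr1d1 and Per2 were among the genes with a smaller difference in EpiRE, and these with Per3, Tef and Npas2 were among those with a smaller difference in BRE. The EpiRE calls of Cry1, Nr1d1 and Per2 held without ZT16 replicate 3 (Per2 then -3.69 in place of -4.60). Between EpiRE and BRE no core clock gene passed with all libraries, but without that mouse Per3 was higher in EpiRE by 1.01 and Npas2 lower by 1.01 (limma adjusted p = 0.019 and 0.0152). Tef differed between RERE and EpiRE with all libraries (1.29) and not without that mouse (0.89, limma adjusted p = 0.0821). Within EpiRE no core clock gene passed in either case; the differences of Per3, Npas2 and Ciart were 0.82, -0.82 and 1.08 without it.

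The promoters of 3 of these genes are shown because they hold the sequences through which clock factors act. Each is the RefSeq window of 250 bases before to 50 bases after the gene's start in GRCm38.p6. For Cry1 (chr10:85185005-85185304, minus strand) and Tef (chr15:81802423-81802722, plus strand) the capitals mark the E-box CACGTG, the binding sequence of CLOCK and BMAL1. For Per3 (chr4:151044616-151044915, minus strand) they mark 2 copies of the D-box TTATGTAA, the sequence bound by PAR bZIP factors such as TEF.
Cry1: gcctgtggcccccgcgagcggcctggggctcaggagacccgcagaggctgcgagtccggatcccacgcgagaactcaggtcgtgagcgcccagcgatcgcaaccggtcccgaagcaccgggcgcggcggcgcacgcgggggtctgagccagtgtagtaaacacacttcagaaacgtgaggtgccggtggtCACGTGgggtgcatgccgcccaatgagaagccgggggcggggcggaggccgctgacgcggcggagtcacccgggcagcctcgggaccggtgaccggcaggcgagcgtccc
Tef: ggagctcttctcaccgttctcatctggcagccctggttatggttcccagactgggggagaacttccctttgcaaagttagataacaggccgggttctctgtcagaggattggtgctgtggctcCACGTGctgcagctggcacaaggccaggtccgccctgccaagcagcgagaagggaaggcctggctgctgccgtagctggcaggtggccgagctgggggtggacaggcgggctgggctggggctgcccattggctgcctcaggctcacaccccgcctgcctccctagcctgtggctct
Per3: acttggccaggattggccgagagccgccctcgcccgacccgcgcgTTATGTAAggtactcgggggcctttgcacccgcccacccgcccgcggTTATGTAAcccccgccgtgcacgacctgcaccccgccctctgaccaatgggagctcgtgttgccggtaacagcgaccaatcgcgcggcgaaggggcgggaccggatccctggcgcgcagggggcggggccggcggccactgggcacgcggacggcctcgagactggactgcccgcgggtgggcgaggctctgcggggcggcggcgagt
Letters were searched on both strands. The E-box was found in 4 of 15 core clock promoters with a window in the table (26.7%), against 12.2% of the 9017 tested genes with one. The D-box was found in 1 of 15, against 0.588% of the tested genes. Matches describe the letters of these windows and were not set against binding.

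Clock output genes, which lie downstream of the loop in many tissues, were read next. Of 17 tested, 6 rose and 1 fell in RERE, 0 passed in EpiRE, 2 rose and 1 fell in BRE and 6 rose in WT. In RERE, BRE and WT these were 41.2%, 17.6% and 35.3% of the list, against 5.91%, 11.1% and 12.2% of all tested genes. The medians in RERE, EpiRE, BRE and WT were 0.47, 0.01, 0.14 and 0.10. Cx3cl1, the gene of the chemokine fractalkine, was at 19.4, 20, 20.1 and 19.7 RPKM at ZT16 in RERE, against 10.9, 12.6, 10.2 and 11.3 RPKM at ZT4. In EpiRE it was at 11.2 to 16.8 RPKM at ZT16 and 14.6 to 17.8 RPKM at ZT4, and in BRE at 7.28 to 11.5 RPKM and 8.31 to 10.9 RPKM. Its values in WT were 17.4, 20.2, 19.8 and 16.4 RPKM at ZT16, against 12.8, 9.97, 10.8 and 10.7 RPKM at ZT4. The 2 times overlapped in EpiRE and BRE and not in RERE or WT, and the log2 differences were 0.82 ± 0.09 in RERE, -0.16 ± 0.11 in EpiRE, -0.01 ± 0.12 in BRE and 0.74 ± 0.07 in WT. EpiRE and BRE both lay below WT (limma adjusted p = 0.000164 for EpiRE and 0.000736 for BRE).

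Pdxk, which makes the active form of vitamin B6, had 0.87 in RERE, 0.20 in EpiRE, 0.12 in BRE and 1.10 in WT. Sod2, the mitochondrial superoxide dismutase, had 0.52 in RERE, 0.07 in EpiRE, 0.04 in BRE and 0.49 in WT. Naa60, a protein acetyltransferase, had 0.53 in RERE, 0.05 in EpiRE, 0.10 in BRE and 0.70 in WT. These 3 genes rose in RERE and WT, and differed from WT in EpiRE and in BRE, and not in RERE. Lonrf3, a RING finger gene, had 1.62 in RERE, 0.01 in EpiRE, 0.38 in BRE and 0.86 in WT, and the EpiRE and BRE values differed from RERE and not from WT.

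Over all 12144 genes, the time differences of RERE resembled those of BRE and WT more than those of EpiRE. Pearson's r across genes was 0.44 between RERE and BRE, 0.38 between RERE and WT, 0.22 between EpiRE and WT, 0.15 between BRE and WT, 0.14 between RERE and EpiRE and -0.23 between EpiRE and BRE. Genes are not independent replicates, and no library is shared by any 2 of these differences. RERE and BRE had 286 genes called with the same sign, which is 39.8% of the RERE calls and 21.3% of the BRE calls, and 18 with opposite signs. RERE and WT had 240 with the same sign (33.4% of RERE and 16.2% of WT calls) and 0 with opposite signs. BRE and WT had 203 with the same sign (15.1% of BRE and 13.7% of WT calls) and 71 with opposite signs. After rescaling the genes called with the same sign were 247 for RERE and BRE, 285 for RERE and WT and 206 for BRE and WT, so the order of the first 2 pairs depended on the scaling.

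**Figure D3:**
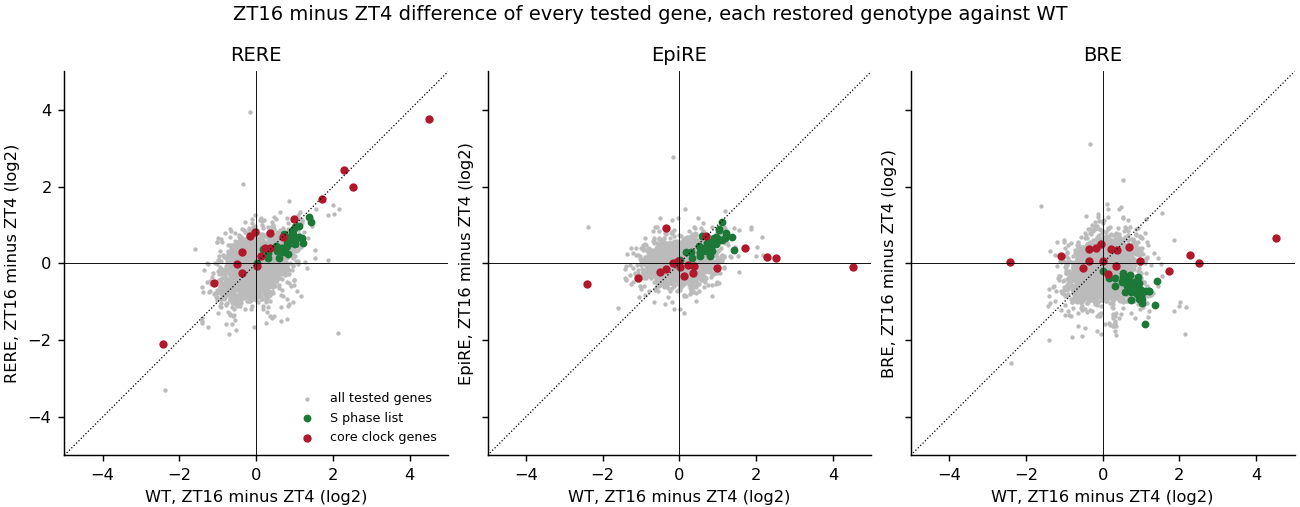
ZT16 minus ZT4 log2 difference of each tested gene in RERE, EpiRE and BRE (vertical axes) against the same in WT (horizontal axes), with 18 core clock genes in red and the 36 S phase genes in green; the dotted line marks equal differences. In the RERE panel the 7 clock genes called in RERE lie on the same side of 0 as in WT, the clock genes lie between -0.53 and 0.91 in EpiRE and between -0.28 and 0.67 in BRE, and in the BRE panel the S phase genes lie below 0.

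Genes that rose in WT were followed in the other genotypes. Of the 833, 77.2% had the same sign in RERE and 76.1% in EpiRE, against 45.3% in BRE, and their medians were 0.14, 0.10 and -0.02. Among all tested genes, 4757 were above 0 and 7111 below 0 in RERE, 6030 and 5854 in EpiRE, and 4172 and 7723 in BRE. Of the 648 genes that fell in WT, 77.2% had the same sign in RERE, 67% in EpiRE and 81% in BRE.

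Genes of DNA replication in S phase moved in opposite directions in BRE and WT. Of the 36 tested genes of the S phase and DNA replication list, 10 rose in RERE, with a median log2 difference of 0.52. In EpiRE none passed after adjustment, yet all 36 values were above 0, with a median of 0.51. An unadjusted p below 0.05 was held by 27 of them, and by 10.8% of all tested genes in EpiRE. In BRE 16 fell (median -0.60) and all 36 values were below 0, and in WT 33 rose (median 0.81). The calls in RERE, BRE and WT were 27.8%, 44.4% and 91.7% of the list, against 5.91%, 11.1% and 12.2% of all tested genes. After rescaling 14 rose in RERE, 12 fell in BRE and 33 rose in WT. The same list was already known to vary with time in these data, so its direction is not independent evidence. In bulk tissue, fewer cells in S phase and less RNA per such cell cannot be told apart.

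**Figure D4:**
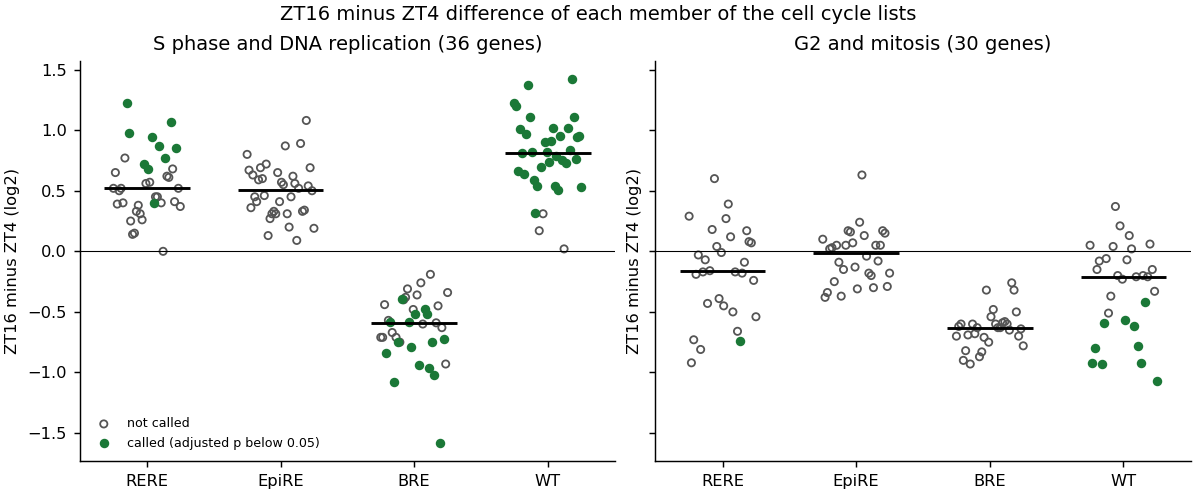
ZT16 minus ZT4 log2 difference of each gene of the S phase list (36 genes, left) and the G2 and mitosis list (30 genes, right) in the 4 genotypes; filled points passed the adjusted p of 0.05, open points did not, and lines are medians. S phase genes lie at or above 0 in RERE, above 0 in EpiRE and WT and below 0 in BRE, with 10 of 36 filled in RERE, 0 in EpiRE, 16 in BRE and 33 in WT.

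Cdc6, which loads the MCM helicase onto replication origins, was at 1.07, 1.63, 1.53 and 1.72 RPKM at ZT16 in RERE, against 0.804, 0.614, 0.596 and 0.534 RPKM at ZT4. In BRE it was at 1.13, 0.473, 0.76 and 0.343 RPKM at ZT16, against 1.74, 0.96, 1.25 and 1.33 RPKM at ZT4. WT epidermis had 1.33, 1.73, 1.68 and 1.82 RPKM at ZT16, against 0.557, 0.66, 0.783 and 0.551 RPKM at ZT4. ZT16 lay above ZT4 without overlap in RERE and WT, whereas in BRE it was lower on average and 1 ZT16 mouse reached the ZT4 range. Cdc6 rose by 1.22 ± 0.19 in RERE (log2), had 0.69 ± 0.25 in EpiRE, which did not pass, fell by 1.08 ± 0.26 in BRE and rose by 1.37 ± 0.16 in WT. The BRE call was lost without ZT16 replicate 2 or ZT4 replicate 1 and when only ZT16 and ZT4 libraries were fitted (limma adjusted p = 0.0559 to 0.136). The values lie near 1 RPKM, where the prior count in the deposited values pulls log2 differences towards 0.

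Tk1, the thymidine kinase of nucleotide salvage, was at 14.3, 8.66, 9.62 and 9.97 RPKM at ZT16 in BRE, against 25.1, 18.1, 18.6 and 20.2 RPKM at ZT4. The WT values were 20.7, 23.6, 24.1 and 24.9 RPKM at ZT16, against 11.6, 15.7, 15.8 and 12.9 RPKM at ZT4. Neither pair of groups overlapped, and the directions were opposite. The BRE difference was -0.96 ± 0.17, the WT difference 0.75 ± 0.09, and BRE minus WT was -1.71 ± 0.20 (limma adjusted p = 3.59e-07). Mcm5, a subunit of the replicative helicase, had 0.50 ± 0.19 in RERE and 0.63 ± 0.22 in EpiRE, which did not pass, fell by 0.84 ± 0.23 in BRE and rose by 1.01 ± 0.13 in WT. The BRE call of Mcm5 was lost without ZT16 replicate 2, 3 or 4 or ZT4 replicate 1 or 4 (limma adjusted p = 0.057 to 0.0983 over these and the fit of ZT16 and ZT4 libraries alone). Dscc1, part of an alternative clamp loader, fell by 1.58 in BRE and rose by 1.11 in WT. Uhrf1, which brings DNA methylation to new strands, fell by 1.02 in BRE and rose by 1.02 in WT.

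Tests between genotypes placed BRE apart for this list. Of 36 genes, 34 had a lower difference in BRE than in WT, which 5.95% of all tested genes had (7.1% differed in either direction, 1.15% upwards). For 24 of 36 the difference was higher in RERE than in BRE (1.26% of all genes, with 0.0247% lower and 1.28% in all), and for 31 of 36 it was higher in EpiRE than in BRE (7.49% of all genes, with 1.94% lower and 9.42% in all). None differed between RERE and WT or between RERE and EpiRE (0.593% and 1.24% of all genes, for EpiRE 0.519% higher and 0.725% lower in RERE), and 1 was lower in EpiRE than in WT (0.84% of all genes, with 0.502% higher and 1.34% in all), a call lost whenever 1 replicate number or EpiRE ZT16 replicate 3 was left out and with the replicate block. Of the 153 genes with a higher difference in RERE than in BRE, 24 belonged to the S phase list. Of 67 genes called lower in BRE and higher in WT, 15 did. After rescaling 45 genes were called lower in BRE and higher in WT.

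Counts of the S phase and DNA replication list within BRE and RERE hung on single mice. In BRE 27 genes fell without ZT16 replicate 1, but 4 without ZT16 replicate 2, 7 without ZT16 replicate 3 or 4 or ZT4 replicate 4, and 5 without ZT4 replicate 1. In RERE 20 rose without ZT16 replicate 1, but 6 without ZT16 replicate 2 or 4 or ZT4 replicate 1, and 5 without ZT4 replicate 4. The RERE mouse in question had the helicase gene Mcm2 at 6.71 RPKM, against 12.8 to 20.5 RPKM in the other RERE mice at ZT16, and the BRE mouse had it at 12.2 RPKM, against 5.24 to 7.9 RPKM. In WT 32 or 33 genes rose in every such fit, and the count below WT in BRE stayed between 30 and 34 when 1 replicate number was left out. The count for RERE over BRE was 3 to 31 and that for EpiRE over BRE 8 to 22 under the same omissions (32 without EpiRE ZT16 replicate 3 alone), with the lowest values without replicate 4 and without replicate 2.

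E2F factors switch on many of these genes before S phase, and the windows of 4 helicase and loading genes are shown for their E2F sites. Capitals mark matches, on either strand, to TTTCCCGC, TTTGGCGC, TTTCGCGC or TTTGCCGC. The windows are Mcm3 (chr1:20820263-20820562, minus strand, 2 matches), Mcm6 (chr1:128359656-128359955, minus strand, 3 matches), Mcm5 (chr8:75109259-75109558, plus strand, 2 matches) and Cdc6 (chr11:98907901-98908200, plus strand, 1 match), from RefSeq, GRCm38.p6. The 2 matches of Mcm5, and 2 of the 3 of Mcm6, overlap on opposite strands.
Mcm3: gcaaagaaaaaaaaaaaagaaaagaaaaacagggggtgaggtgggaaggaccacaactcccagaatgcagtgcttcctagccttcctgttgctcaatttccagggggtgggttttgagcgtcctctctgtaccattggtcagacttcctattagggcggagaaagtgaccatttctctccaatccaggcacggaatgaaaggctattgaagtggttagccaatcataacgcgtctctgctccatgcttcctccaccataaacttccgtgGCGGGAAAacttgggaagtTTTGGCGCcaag
Mcm6: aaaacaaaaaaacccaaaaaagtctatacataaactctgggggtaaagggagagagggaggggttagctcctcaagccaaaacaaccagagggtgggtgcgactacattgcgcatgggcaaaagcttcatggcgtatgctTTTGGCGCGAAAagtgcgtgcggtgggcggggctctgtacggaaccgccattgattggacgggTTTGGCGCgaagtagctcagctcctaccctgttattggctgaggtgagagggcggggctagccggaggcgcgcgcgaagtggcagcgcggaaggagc
Mcm5: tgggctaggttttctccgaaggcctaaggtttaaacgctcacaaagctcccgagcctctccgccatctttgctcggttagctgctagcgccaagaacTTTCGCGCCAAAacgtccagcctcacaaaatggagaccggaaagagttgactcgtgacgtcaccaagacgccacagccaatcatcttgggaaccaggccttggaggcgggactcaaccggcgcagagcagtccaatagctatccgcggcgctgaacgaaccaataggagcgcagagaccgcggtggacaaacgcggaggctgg
Cdc6: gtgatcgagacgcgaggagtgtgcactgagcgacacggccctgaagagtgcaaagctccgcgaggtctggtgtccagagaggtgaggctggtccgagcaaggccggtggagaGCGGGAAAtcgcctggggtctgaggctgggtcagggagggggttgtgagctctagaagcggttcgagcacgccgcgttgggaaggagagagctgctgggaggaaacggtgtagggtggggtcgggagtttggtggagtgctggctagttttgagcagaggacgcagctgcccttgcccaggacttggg
Such a match was found in 11 of the 28 S phase genes with a window (39.3%), against 4.77% of the 9017 tested genes. The E-box was found in 4 of the 28 (14.3%), against 12.2%. These shares describe promoter letters and say nothing about which factor acted.

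Fewer genes of G2 and mitosis passed. In RERE 1 of 30 fell, the kinetochore gene Cenpf at -0.74. That is 3.33% of the list, near the 3.66% of all tested genes that fell in RERE. In EpiRE none passed with limma (median -0.01, 0 at an unadjusted p below 0.05), and in BRE none passed although all 30 values were below 0 (median -0.63, 23 at an unadjusted p below 0.05). Of all tested genes 9.17% fell in BRE. An unadjusted p below 0.05 was held by 10.8% of all tested genes in EpiRE and 25.9% in BRE. In WT 10 fell (33.3%, against 5.34% of all tested genes) and none rose. Among the falls in WT were Cdc25c at -1.07, Cdc20, the activator of mitotic exit, at -0.93, and Ccnb1, the cyclin of mitotic entry, at -0.92. Without BRE ZT16 replicate 1 the G2 and mitosis list had 12 falls in BRE, and without WT ZT4 replicate 3 it had 4 falls in WT. The 1 fall in RERE was lost without any 1 library but ZT16 replicate 4 or ZT4 replicate 1. Of 25 of these genes with a promoter window, 1 held an E2F match (4%).

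Mthfd1l, a mitochondrial enzyme of the folate cycle that supplies one-carbon units, had the smallest p outside the clock between BRE and WT. It was at 1.46, 2.15, 1.97 and 1.64 RPKM at ZT16 in RERE, against 0.891, 0.949, 0.544 and 0.673 RPKM at ZT4. In BRE it was at 0.741, 0.781, 0.599 and 0.618 RPKM at ZT16, against 1.49, 1.31, 1.69 and 2.04 RPKM at ZT4. In WT it was at 1.5, 2.35, 2.23 and 3.32 RPKM at ZT16, against 0.548, 0.561, 0.799 and 0.596 RPKM at ZT4. No pair of groups overlapped in these 3 genotypes, with BRE reversed. The log2 difference was 1.26 ± 0.22 in RERE, 0.94 ± 0.31 in EpiRE, -1.24 ± 0.19 in BRE and 1.87 ± 0.19 in WT, and BRE minus WT was -3.11 ± 0.27 (limma adjusted p = 3.09e-10). EpiRE did not pass, with 1 ZT16 mouse at 0.995 RPKM against 2.31 to 2.64 RPKM in the others.

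Other genes with opposite calls in BRE and WT were Eif5a2, a translation factor, at -0.49 in BRE and 1.09 in WT, Zdhhc2, a palmitoyltransferase, at -0.53 and 0.86, and Pola1, the catalytic subunit of DNA polymerase alpha, at -0.52 and 0.74. Kntc1, a kinetochore protein gene, had -1.06 in BRE and 0.98 in WT. For 3 of these 4 genes, Zdhhc2, Pola1 and Kntc1, the RERE value also lay above the BRE value by the test. Eif5a2 did not differ between RERE and BRE and had a smaller difference in EpiRE than in WT (-0.95, or -0.85 and no longer passing without ZT16 replicate 3, limma adjusted p = 0.0783).

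Of the 21 tested genes of the fasting and fatty acid oxidation list, 2 rose in RERE, 0 passed in EpiRE, 8 passed in BRE, of which 7 fell, and 8 fell in WT. In RERE, BRE and WT these were 9.52%, 38.1% and 38.1% of the list, against 5.91%, 11.1% and 12.2% of all tested genes. Cpt1a, which admits fatty acids to mitochondria, had -0.14 in RERE and -0.23 in EpiRE, fell by 0.53 in BRE and fell by 0.37 in WT. Txnip, an arrestin that limits glucose uptake, had 0.32, 0.34 and 0.28 in RERE, EpiRE and BRE and fell by 0.94 in WT; none of the 3 differed from WT by the test. The 7 falls in the fasting and fatty acid oxidation list of BRE became 1 after rescaling and 1 without ZT16 replicate 2, 3 without ZT16 replicate 3 or ZT4 replicate 1 and 4 without ZT4 replicate 2. The 8 of WT became 4 without ZT16 replicate 4 and 5 without ZT4 replicate 1, and the 2 rises of RERE became 1 without any 1 library but ZT16 replicate 3 or ZT4 replicate 1.

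A set of genes changed in RERE, BRE and WT alike. In these 3 genotypes together, 21 genes were called higher and 72 lower (38 and 57 after rescaling). Their medians were 0.39 in RERE, 0.32 in BRE and 0.42 in WT for the rises and -0.51, -0.55 and -0.49 for the falls, values that chose them. EpiRE, which did not choose them, had medians of -0.01 and -0.00, the same sign in 10 of 21 and 38 of 72, and 1 call, the fall of Sypl. This grouping and the examples were chosen after values were seen.

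Cirbp and Rbm3 encode cold-inducible RNA-binding proteins, whose transcripts are known to rise when cells cool. Cirbp was at 29.2, 29.9, 45.7 and 39.2 RPKM at ZT16 in RERE, against 59.4, 74.8, 55.9 and 72.9 RPKM at ZT4, and at 24.4, 24.2, 29.3 and 29.6 RPKM at ZT16 in BRE, against 72.2, 79.1, 62.3 and 59.2 RPKM at ZT4. In EpiRE the ZT16 mice had 49.9, 49.6, 58.7 and 70.4 RPKM, against 60.6, 61.3, 54.1 and 62.1 RPKM at ZT4. In WT Cirbp was at 39, 46.3, 41.8 and 32.7 RPKM at ZT16, against 94, 69.4, 67.3 and 63.2 RPKM at ZT4. Only the EpiRE groups overlapped. Cirbp fell by 0.88 ± 0.21 in RERE, had -0.07 ± 0.16 in EpiRE, fell by 1.34 ± 0.14 in BRE and fell by 0.87 ± 0.18 in WT. The RERE call of Cirbp was lost without ZT16 replicate 1 or ZT4 replicate 4 (limma adjusted p = 0.0545 to 0.0547). Rbm3 fell by 0.63 ± 0.13 in RERE and by 0.93 ± 0.07 in BRE, with -0.10 ± 0.11 in EpiRE and, in WT, -0.48 ± 0.17 (limma adjusted p = 0.0655). EpiRE differed from BRE for both genes and from WT for neither (limma adjusted p = 0.0865 for Cirbp and 0.379 for Rbm3).

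**Figure D5:**
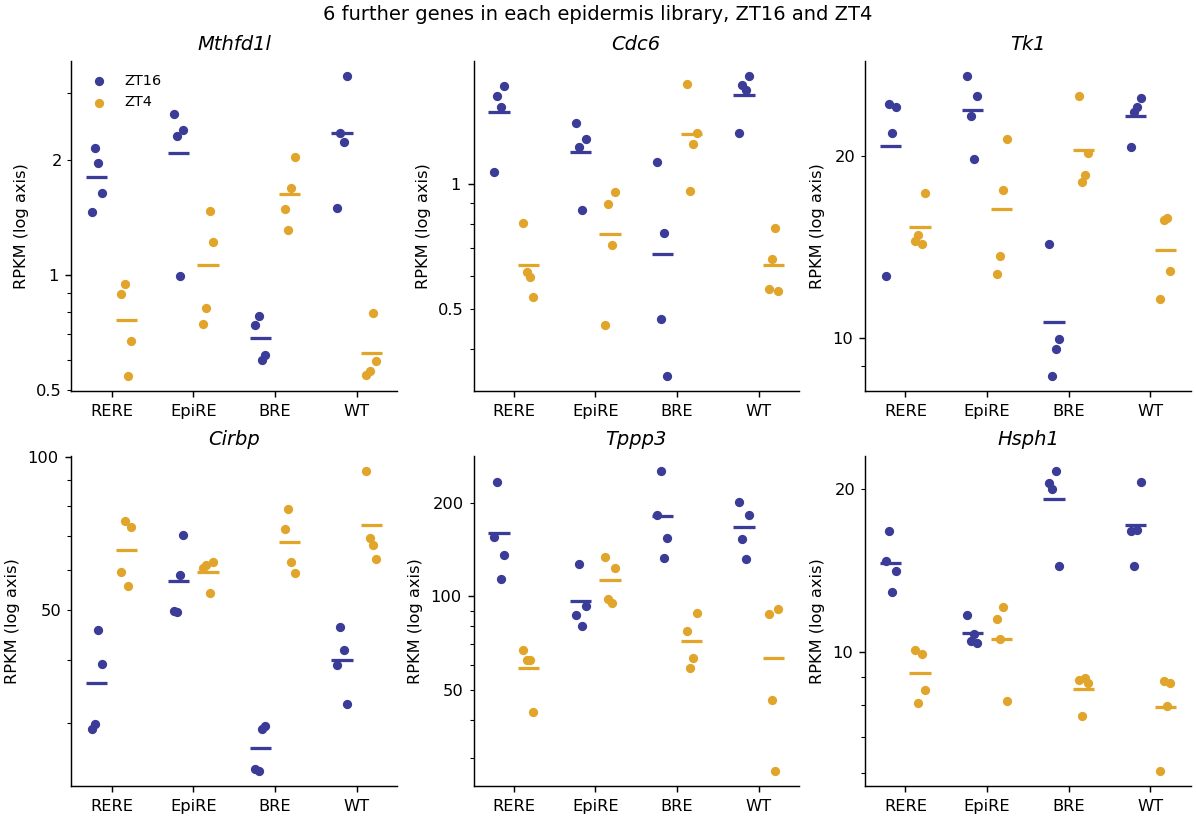
RPKM (log axis) of Mthfd1l, Cdc6, Tk1, Cirbp, Tppp3 and Hsph1 in each library, ZT16 to the left of ZT4 within each genotype, with 4 mice per group as points and the group mean as a line. Mthfd1l is higher at ZT16 in RERE and WT and lower in BRE, Tk1 is lower in BRE and higher in WT, and Cirbp is lower and Tppp3 and Hsph1 are higher in RERE, BRE and WT, with overlap in EpiRE; levels are not comparable between genotypes.

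Heat shock chaperones, which refold damaged proteins, passed as rises alone. Of 16 tested, 2 rose in RERE, 0 passed in EpiRE, 8 rose in BRE and 3 rose in WT, where 2.26%, 0.00823%, 1.89% and 6.86% of all tested genes rose. In EpiRE 7 of the 16 had a lower difference than in BRE, which 1.94% of all tested genes had. Hsph1, a large cofactor of HSP70, was at 14.7, 16.7, 12.9 and 14.1 RPKM at ZT16 in RERE, against 10.1, 8.08, 9.95 and 8.54 RPKM at ZT4. In EpiRE it was at 10.4 to 11.7 RPKM at ZT16 and 8.14 to 12.1 RPKM at ZT4. In BRE it was at 20.5, 20, 21.6 and 14.4 RPKM at ZT16, against 8.89, 7.62, 8.97 and 8.77 RPKM at ZT4, and in WT at 16.7, 14.4, 16.8 and 20.6 RPKM, against 6.05, 8.87, 7.95 and 8.8 RPKM. It rose without overlap in RERE, BRE and WT, with log2 differences of 0.67 ± 0.19 in RERE, 0.05 ± 0.16 in EpiRE, 1.15 ± 0.16 in BRE and 1.12 ± 0.24 in WT; EpiRE minus WT was -1.07 (limma adjusted p = 0.0494, and 0.0963 without ZT16 replicate 3). The RERE call was lost when any 1 of its 8 libraries was left out and with the replicate block (limma adjusted p = 0.0518 to 0.113). Hspa8, the constitutive HSP70, rose by 0.45 in RERE and 0.60 in BRE, and Hsp90aa1 rose by 0.65 in BRE. Hspa1a and Hspa1b, at 0.60 and 0.57 in BRE, are near-identical copies whose reads may be split arbitrarily. Without WT ZT4 replicate 1 the heat shock chaperones list had 1 rise in WT, and without replicate 2 it had 2 genes lower in EpiRE than in BRE.

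Tppp3, a tubulin polymerization promoting protein gene, had the largest WT difference of the 21 shared rises. It was at 114 to 235 RPKM at ZT16 against 42.4 to 67.2 RPKM at ZT4 in RERE, at 80.2 to 127 RPKM against 95.5 to 134 RPKM in EpiRE, at 133 to 255 RPKM against 58.9 to 88.4 RPKM in BRE and at 132 to 202 RPKM against 27.3 to 91 RPKM in WT. The log2 difference was 1.42 ± 0.23 in RERE, -0.23 ± 0.30 in EpiRE, 1.31 ± 0.19 in BRE and 1.55 ± 0.32 in WT, and EpiRE was below each of the others by the test, but not below WT without ZT16 replicate 3 (limma adjusted p = 0.0838). Ecm1, an extracellular matrix protein gene, had 0.62, 0.06, 0.50 and 0.66 in RERE, EpiRE, BRE and WT.

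Among shared falls, Tspear had -3.31 ± 0.45 in RERE, 0.96 ± 0.58 in EpiRE, -2.59 ± 0.41 in BRE and -2.38 ± 0.30 in WT. Sorcs2, a sortilin family receptor gene, had -1.66, 0.39, -0.99 and -1.25 in the same order, and Steap4, a metalloreductase gene, had -1.04, 0.66, -1.23 and -0.91. EpiRE differed from each of the other genotypes for these 3 genes. Cdkn3, a phosphatase that acts on cyclin-dependent kinases, had -1.42 in RERE, -0.14 in EpiRE, -1.12 in BRE and -1.42 in WT, and EpiRE did not differ from the others by the test. Sprr2a3, a cornified envelope gene with near-identical neighbours, fell by 1.56, 1.99 and 1.40 in RERE, BRE and WT and is uncertain for that reason.

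Further genes changed in RERE and BRE, the genotypes that share the brain Cre with the stop allele, and did not pass in WT. Il22ra2, which encodes the soluble IL-22 binding protein, rose by 1.15 ± 0.24 in RERE and by 1.29 ± 0.22 in BRE, with -0.32 ± 0.37 in EpiRE and -0.11 ± 0.19 in WT. RERE and BRE each lay above WT for Il22ra2 (limma adjusted p = 0.0479 and 0.00253). Sh3d21 rose by 0.93 in RERE and 0.78 in BRE, with -0.03 in WT, and both differed from WT. Tns4, the gene of the adhesion protein tensin 4, rose by 0.51 in each, with -0.22 in WT, and both differed from WT. The RERE minus WT calls of Il22ra2, Sh3d21 and Tns4 were lost without replicate 1, 3 or 4, with no filter and with ZT16 and ZT4 libraries only (limma adjusted p = 0.0599 to 0.493 over the 3 genes), and those of Il22ra2 and Sh3d21 also with the replicate block (0.0644 for each). The BRE minus WT call of Tns4 held in each of these fits, that of Il22ra2 was lost without replicate 4 (0.0515), and that of Sh3d21 without replicate 1 or 4 and with ZT16 and ZT4 libraries only (0.0695 to 0.115). Cd59a, a complement inhibitor gene, rose by 0.82 in RERE and 0.99 in BRE, with -0.29 in WT, and BRE differed from WT by the test and RERE did not; the BRE call of Cd59a was lost without replicate 4 (limma adjusted p = 0.074). Car12, a carbonic anhydrase gene, fell by 1.00 in RERE and 1.26 in BRE, with 0.22 in EpiRE and -0.42 in WT.

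Energy genes shifted by small amounts. Of 31 tested genes of oxidative phosphorylation, nuclear-encoded, 5 fell in RERE, 0 passed in EpiRE, 11 fell in BRE and 1 rose in WT. The calls in RERE, BRE and WT were 16.1%, 35.5% and 3.23% of the list, against 5.91%, 11.1% and 12.2% of all tested genes. The medians of the list were -0.14, 0.05, -0.20 and 0.01. After rescaling the falls were 1 in RERE and 7 in BRE. Atp5b, a subunit of ATP synthase, fell by 0.25 in RERE and by 0.28 in BRE, with 0.04 in EpiRE and -0.09 in WT. Without BRE ZT16 replicate 2 or 3 or ZT4 replicate 1 the oxidative phosphorylation, nuclear-encoded list had 6 falls in BRE, and 17 without ZT4 replicate 3; in RERE it had 2 or 3 without any 1 library but ZT4 replicate 3. Of 17 tested genes of glycolysis, 1 fell in RERE, 7 fell in BRE (2 after rescaling) and 3 rose in WT. These were 5.88%, 41.2% and 17.6% of the list, against 5.91%, 11.1% and 12.2% of all tested genes, so the RERE count was at the general share. In the test between genotypes 7 lay lower in BRE than in WT (4 after rescaling), as did 5.95% of all tested genes. Ldha, lactate dehydrogenase A, had -0.20 in BRE and rose by 0.40 in WT, and Pgk1 fell by 0.43 in BRE, with 0.23 in WT. The 7 falls in glycolysis became 2 without BRE ZT16 replicate 2 or 3, 3 without ZT4 replicate 1 or 4 and 4 without ZT4 replicate 2 or 3, and the 7 lower than in WT became 4 without replicate 2 or 3 and 1 without replicate 4.

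Of the 4 EpiRE calls, 3 were small in size and were lost in most other fits. Stk40, a serine/threonine kinase gene, was at 28.1, 29.5, 28.4 and 25.8 RPKM at ZT16 in EpiRE, against 36.2, 34.5, 36.8 and 33.5 RPKM at ZT4. The groups did not overlap, which 7.67% of all tested genes showed in this genotype, and the fall was 0.34 ± 0.06 (limma adjusted p = 0.042). Cep250, a centrosomal protein gene, was at 9.21, 8.62, 8.52 and 8.95 RPKM at ZT16 in EpiRE, against 6.67, 6.89, 6.79 and 7.53 RPKM at ZT4, again without overlap, and rose by 0.34 (limma adjusted p = 0.042). Sypl, a synaptophysin-like membrane protein gene, fell in all 4 genotypes, by 0.32 in RERE, 0.24 in EpiRE, 0.21 in BRE and 0.17 in WT. The EpiRE calls of Stk40, Cep250 and Sypl were lost with the replicate block, with ZT16 and ZT4 libraries only and in at least 7 of 8 fits without 1 library, with limma adjusted p-values of up to 0.185 over these fits, and those of Stk40 and Sypl also after rescaling. The Sypl call in BRE was lost after rescaling (limma adjusted p = 0.116), and that in WT after rescaling, with ZT16 and ZT4 libraries only and in 6 of 8 fits without 1 library (limma adjusted p = 0.0511 to 0.138).

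Mir16-2, a microRNA gene, had the smallest EpiRE p (log2 difference -0.85, limma adjusted p = 1.61e-05), and its call was lost with ZT16 and ZT4 libraries only (0.137). It stood at 1.32 RPKM in each of the 4 ZT16 mice, against 1.87, 2.99, 2.39 and 2.39 RPKM at ZT4. The value of 1.32 RPKM is the lowest that the gene has in EpiRE and is shared by 20 of the 24 libraries of that genotype, so it is the floor set by the prior count, and the ZT4 mice alone lay above it. In RERE 21 of 24 libraries, in BRE 20 and in WT 21 stood at the floor of their own table. Mir16-2 lies within a host gene and its reads cannot be assigned with certainty.

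RERE and WT differed for 72 genes, 37 with a higher (0.305%) and 35 with a lower (0.288%) difference in RERE (68 and 19 after rescaling). The 8 smallest p-values outside the clock belonged to Adrm1, Ppfibp2, Erbb3, Rbm33, Pik3cb, Tns4, Wdr18 and Ctu2, with limma adjusted p-values of 0.0438 to 0.0471. Erbb3, a receptor of the EGF receptor family, had 0.20 ± 0.13 in RERE and fell by 0.63 ± 0.10 in WT, a difference of 0.83 ± 0.17. The count rested on single replicates, being 0 without replicate 1 or 4, 2 without replicate 3 and 273 without replicate 2, and it was 3 when only the ZT16 and ZT4 libraries were fitted. Against WT, 163 genes differed in EpiRE (84 without ZT16 replicate 3) and 862 in BRE, where 722 lay below WT (431 against 250 above it after rescaling). Leaving out 1 replicate number gave 21 to 158 for EpiRE and 315 to 565 for BRE. An F test of unequal differences among all 4 genotypes called 1508 genes, 12.4% of those tested. RERE and EpiRE differed for 151 genes, 63 higher and 88 lower in RERE (126 and 76 after rescaling; 99 without EpiRE ZT16 replicate 3, 4 to 184 over all such omissions), and RERE and BRE for 156, of which 153 were higher in RERE (21 to 188 when a replicate number was left out). EpiRE and BRE differed for 1144 genes, 909 of them higher in EpiRE (598 against 402 lower after rescaling), and for 272 to 998 over the omissions.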

How the data were processed

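Poly(A) RNA of back-skin epidermis, freed with dispase, was sequenced with a stranded mRNA kit, per the labels' protocols. Per the submitters' processing notes the tools included Trimmomatic 0.36, HISAT2 2.2.1, SAMtools 1.3.1, featureCounts 1.6.0 and edgeR, with the mouse build mm10; the strand setting of the counting is not given in the sources used here. The authors deposited 1 table of log2 values per genotype. The labels do not name the unit further. Low values sit on a floor set by a prior count of about 2 reads divided by gene length and depth, so they were read as log2 RPKM and the depths were estimated from that floor. The prior count shrinks the differences of low genes. Deposited q-values of a rhythm test (JTK) were set beside the calls only.

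Testing was limited to 12144 genes whose average over the 96 libraries reached 1 RPKM, out of 22384 found in each table. The log2 values were fitted as deposited with limma 3.58.1 (R 4.3.3, trended empirical Bayes), with 1 mean per time over the 24 libraries of a genotype, or 48 for a pair of genotypes, and p-values were Benjamini-Hochberg adjusted over all tested genes and called below 0.05. Values are not counts, so no count test was made. The labels list the mice of a group as separate samples. The fits were tested on simulated data. Alternatives were rescaling by the median of gene ratios, no filter, only ZT16 and ZT4 libraries, 1 fit of all 96, the replicate number as a block and leaving out libraries. Plots used Python 3.11.15 with matplotlib 3.10.9.

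Genes were named by rule: core clock genes, the 10 largest rises and falls per genotype among genes averaging 10 RPKM or more, the 8 smallest p-values per genotype pair outside the clock, the 8 largest changes in all genotypes, the 8 smallest p-values among opposite calls, and up to 4 members per list plus any needed to state a result; predicted genes were passed over. Some genes that the rule names are not reported here. The members, lists and tests were chosen with earlier results of these data known. Promoters are RefSeq windows in GRCm38.p6.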

Additional observations from a re-analysis of the deposited data

Results flagged for a closer look

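In the groups of 4 mice, 8 of 152 sets of values over 19 genes had a highest or lowest mouse far from the rest; about 5% of such sets are flagged by chance. These were the lowest Mthfd1l value of EpiRE at ZT16, 0.995 RPKM, from replicate 3, and the highest Cx3cl1 of EpiRE at ZT4, 17.8 RPKM. The others were the lowest Tk1 of RERE at ZT16 (12.7 RPKM), the lowest Tppp3 of RERE at ZT4 (42.4 RPKM), the highest Nr1d1 and lowest Hsph1 of BRE at ZT4 (5.02 and 7.62 RPKM), and the lowest Cry1 and highest Per2 of WT at ZT16 (19.5 and 13.3 RPKM).

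The time difference itself differed between genotypes by limma's test in 43 of 114 comparisons of these genes. Several of them, such as Mthfd1l, Tk1, Cdc6 and Cx3cl1, were named for small p-values in these same tests. The count is therefore not independent evidence. Of all tested genes, between 0.593% (RERE and WT) and 9.42% (EpiRE and BRE) differed. All values that follow are differences of log2 differences. For EpiRE minus WT they were -2.38 for Cry1, 1.88 for Nr1d1, -4.60 for Per2, -1.78 for Tppp3, -1.07 for Hsph1 and -0.90 for Cx3cl1. For BRE minus WT they were -2.51 for Cry1, 2.45 for Nr1d1, -3.84 for Per2, -1.91 for Per3, -0.90 for Tef and -0.75 for Cx3cl1. Among S phase genes and Mthfd1l, BRE minus WT was -3.11 for Mthfd1l, -2.45 for Cdc6, -1.71 for Tk1, -1.85 for Mcm5 and -1.93 for Mcm2.

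RERE minus EpiRE was 1.86 for Cry1, -1.57 for Nr1d1, 3.86 for Per2, 1.29 for Tef, 1.65 for Tppp3 and 0.98 for Cx3cl1. RERE minus BRE was 2.00 for Cry1, -2.13 for Nr1d1, 3.11 for Per2, 1.86 for Per3, 1.09 for Tef and 0.83 for Cx3cl1, and 2.50 for Mthfd1l, 2.30 for Cdc6, 1.37 for Tk1 and 1.34 for Mcm5. EpiRE minus BRE was 2.18 for Mthfd1l, 1.77 for Cdc6, 1.52 for Tk1, 1.47 for Mcm5 and 1.5 for Mcm2. It was 1.27 for Cirbp, 0.83 for Rbm3, -1.54 for Tppp3, -1.10 for Hsph1 and -0.50 for Stk40.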

How the results depend on the processing

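Of 39 called differences of named genes, none changed sign after rescaling or without 1 library. With ZT16 and ZT4 libraries only and with the replicate block the log2 difference stays the same by design, so its sign could not change. After rescaling 4 lost their call, as did 7 with ZT16 and ZT4 libraries only and 3 with the replicate block. The call was also lost in 38 of 312 fits without 1 library. Leaving out 1 library gave 356 to 574 calls in RERE, 1 to 3 in EpiRE, 604 to 1586 in BRE and 936 to 1361 in WT. Leaving out 1 replicate number or EpiRE ZT16 replicate 3 gave 0 to 273 genes for RERE minus WT, 21 to 158 for EpiRE minus WT, 315 to 565 for BRE minus WT, 4 to 184 for RERE minus EpiRE, 21 to 188 for RERE minus BRE and 272 to 998 for EpiRE minus BRE. Without that mouse alone, chosen after its values were seen, EpiRE minus WT had 84 genes and RERE minus EpiRE 99.

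EpiRE had 2 calls after rescaling, 1 with no filter, 0 with ZT16 and ZT4 libraries only and 8 in 1 fit of all libraries. With ZT16 and ZT4 libraries only, RERE had 468 and BRE 661, RERE minus WT 3, RERE minus EpiRE 302 and RERE minus BRE 78. With no filter RERE minus WT had 0 and EpiRE minus WT 86, and 1 fit of all libraries gave 239 for RERE minus EpiRE. The causes were not tested.

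Replicate numbers were not taken as pairs, since same-numbered ZT16 and ZT4 mice correlated from -0.227 to 0.347. With the replicate block the counts were 774 in RERE, 1 in EpiRE, 1279 in BRE, 1438 in WT and 21 for RERE minus WT. Depth was estimated, not given, and it limits genes near 1 RPKM most.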

Other observations

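Of 18 immediate early genes, which respond fast to stimulation, none passed in any genotype with limma. After rescaling 1 rose in RERE and 1 in BRE. The counts at an unadjusted p below 0.05 were 12 in RERE, 0 in EpiRE, 2 in BRE and 0 in WT. Of all tested genes 21.2%, 10.8%, 25.9% and 26.1% were below that p in the same order. Their median log2 differences were 0.68, 0.08, 0.38 and -0.08. Egr1 had 0.76 in RERE and -0.08 in WT, and Fos had 0.67 and -0.04. No gene of the list differed between genotypes by the test.

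Chaperones of the endoplasmic reticulum passed in neither RERE nor EpiRE, and 3 of 19 rose in BRE and 5 in WT, where 1.89% and 6.86% of all tested genes rose. The count of endoplasmic reticulum chaperones in BRE was 8 after rescaling and 1 to 5 without 1 library, and in EpiRE 2 passed without ZT4 replicate 3. Sdf2l1 rose by 1.03 and Creld2 by 0.82 in WT. Of 28 genes of keratinocyte differentiation and cornified envelope, 1 rose and 2 fell in RERE, 2 rose and 2 fell in BRE, and 2 rose and 1 fell in WT, or 10.7%, 14.3% and 10.7% of the list against 5.91%, 11.1% and 12.2% of all tested genes. The envelope gene Ivl rose by 1.14 in BRE, and the keratin gene Krt1 rose by 0.48 in WT. Among 9 tested skin chemokines and cytokines, 1 rose in RERE, 0 passed in EpiRE, 2 fell in BRE, and 1 rose and 2 fell in WT. Of all tested genes 2.26% rose in RERE, 9.17% fell in BRE, and 6.86% rose and 5.34% fell in WT. The falls were those of Il34 and Csf1 in BRE, by 0.51 and 0.50, and of Ccl27a and Cxcl14 in WT, by 0.82 and 0.76. Of 20 genes of cholesterol synthesis and uptake, 1 fell in RERE (0 after rescaling) and 3 in BRE (2 after rescaling). These were 5% and 15% of the list, near the 5.91% and 11.1% of all tested genes. Yet all 20 values were below 0 in RERE (median -0.46) and 17 were in BRE (median -0.29). In EpiRE 19 were above 0 (median 0.14), and in WT 10 were above and 10 below 0. Srebf2, a regulator of cholesterol synthesis, fell by 0.46 in RERE and by 0.41 in BRE, and its RERE call was lost after rescaling (limma adjusted p = 0.0632) and in 6 of 8 fits without 1 library. Of 26 cytosolic ribosomal protein genes none passed with limma, with 1 in BRE at an unadjusted p below 0.05 (25.9% of all tested genes).

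Histone genes, listed after values were seen, gave 5 rises and 13 falls in BRE and 3 rises in WT of 53 tested. Among all tested genes 1.89% rose and 9.17% fell in BRE, and 6.86% rose in WT. The near-identical copies of histone genes make single members uncertain. In the authors' deposited table, a JTK q-value below 0.05 was held by 426 of the 718 genes called in RERE, 2 of 4 in EpiRE, 460 of 1343 in BRE and 1000 of 1481 in WT. Over all tested genes the same q-value was held by 1035 in RERE (8.52%), 19 in EpiRE (0.156%), 689 in BRE (5.67%) and 2521 in WT (20.8%) in the authors' deposited table.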
